A study of Mus musculus with 4 samples.

Results

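Th and Slc6a3 encode the enzyme and the transporter by which dopamine neurons are most often recognised, and both were bright on only 1 of the 4 arrays, the array of cells given Nurr1 and Foxa2 together. Each gene has 1 named probe, so 2 probes of the 25697 on the array, or 2 of 8980 named genes, are described here. They were chosen because earlier results of these data showed this pattern, and their levels are therefore a description that supports no test. The cells were neural precursor cells cultured from the cortex of ICR mouse embryos at embryonic day 12, in serum-free N2 medium with ascorbic acid and B27, where bFGF and EGF, the mitogens of such cultures, kept them dividing. While proliferating they were incubated for 2 hours with retrovirus made from the pCL vector. The vector was empty in the Control group, carried the Nurr1 cDNA in the Nurr1 group and the Foxa2 cDNA in the Foxa2 group, and cells of the Nurr1+Foxa2 group received both cDNAs, by 1 virus or by a mixture, which the labels do not say. All groups then spent 2 days without growth factors before total RNA was taken. There was 1 array per group, so no difference has a replicate check, and the only error that can be given is the spread between probes of the same gene. The share of cells that took up each virus is not given in the sources used here. More cells with Th transcript and more transcript per cell cannot be told apart in RNA from a whole culture.

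Tyrosine hydroxylase, the product of Th, turns tyrosine into L-DOPA and is the rate-limiting enzyme of catecholamine synthesis, with tetrahydrobiopterin as its cofactor. Aromatic L-amino acid decarboxylase, the product of Ddc, then makes dopamine, which is loaded into vesicles and released. Slc6a3 encodes the dopamine transporter, a member of the sodium- and chloride-dependent Slc6 family that returns released dopamine to the neuron. In the midbrain the nuclear receptor Nurr1 is needed for the expression of both genes, and Foxa2, a forkhead protein made in floor plate cells, is needed for dopamine neurons to form. Th is also expressed in noradrenergic neurons and in some neurons of the forebrain, whereas Slc6a3 is more restricted to dopamine neurons. Cortical precursors do not normally give rise to midbrain dopamine neurons.

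The Th probe had a deposited signal (bead intensity on a linear scale, background not subtracted) of 101 with the empty vector, 188 with Nurr1 alone, 237 with Foxa2 alone and 4470 when the factors were combined. A probe was taken as detected at a detection p-value under 0.01, a value that sets its signal against the negative control beads of the same array. The Control signal of Th had a detection p-value of 0.363 and was brighter than 53.1% of the undetected probes there, so it cannot be told from background. Both single-factor signals were detected, at detection p-values of 0.00376 with Nurr1 and 0 with Foxa2, but lay only 1.13-fold and 1.37-fold above the lowest detected signal of their arrays. With both factors the signal was 25.0 times the lowest detected signal. The Th probe moved from the 30.4th percentile of all probes on the Control array to the 58.8th with Nurr1, the 61.4th with Foxa2 and the 95.3rd with both.

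The Slc6a3 probe had a deposited signal of 117 with the empty vector, 171 with Nurr1 alone, 113 with Foxa2 alone and 2023 when the factors were combined. Neither the Control signal (detection p-value 0.137) nor the Foxa2 signal (0.224) was detected, and the Nurr1 signal passed narrowly, at 0.00752 and 1.03-fold above the lowest detected signal. Slc6a3 was thus at or next to background on 3 arrays and 11.3 times the lowest detected signal on the fourth. Its percentile among all probes was 43.0 on the Control array, 56.6 with Nurr1, 37.0 with Foxa2 and 89.1 with both. Th differed from Slc6a3 on the Foxa2 array, where Th was detected and Slc6a3 was not. Signals of the 2 probes are not compared in size, since different probes bind their targets differently.

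**Figure D1:**
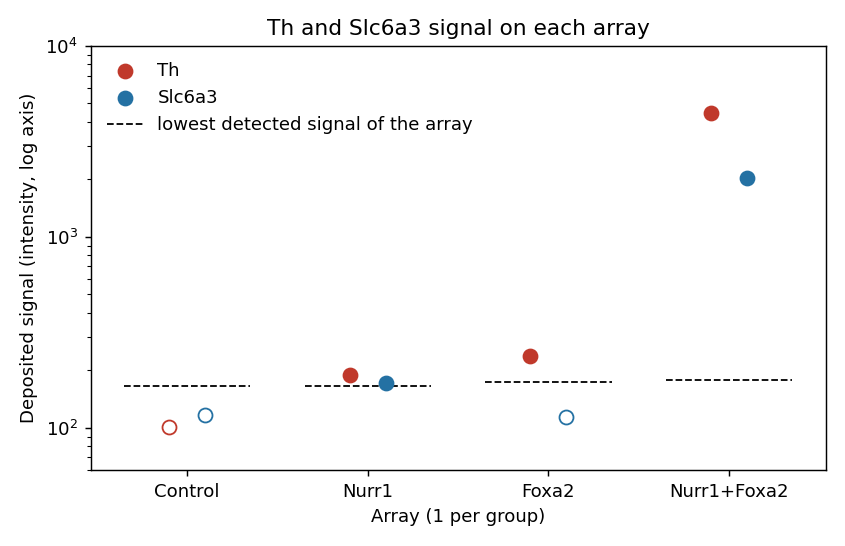
Deposited signal of the Th and Slc6a3 probes (log axis) on the 4 arrays, 1 array per group, with filled points detected and open points not detected. The dashed line is the lowest detected signal of each array, from 166 to 179, and both genes lie well above it only with Nurr1+Foxa2, at 4470 and 2023.

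Differences were taken on background-corrected, quantile-normalized log2 values, with a value not detected raised to the lowest normalized value detected on its array, so that a fold against it is a bound. With both factors Th exceeded Control by at least 44.1-fold (log2 5.46), and it was 38.5-fold higher than with Nurr1 alone (5.27) and 30.4-fold higher than with Foxa2 alone (4.93). Slc6a3 exceeded Control by at least 19.3-fold (4.27), and it was 20.5-fold higher than with Nurr1 alone (4.36) and at least 22.7-fold higher than with Foxa2 alone (4.51). For comparison, probes of the same gene differed among themselves with a standard deviation (log2) of 0.24 for both factors against Control and 0.20 against either single factor, a spread that leaves out differences between cultures. Against Control, Th ranked 6 and Slc6a3 ranked 26 among 7901 genes with a difference, where 7.06% of 8019 genes were at least 2-fold higher. Against Nurr1 they ranked 2 and 9 among 7950 (4.41% of genes higher), and against Foxa2 6 and 10 among 8033 (4.81% higher). Without background correction the differences from Control were 4.57 for Th and 3.41 for Slc6a3, and they were the same to 2 decimals with the authors' values. The 3 contrasts share the array with both factors, so these ranks are not separate evidence.

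With a single factor the differences from Control were small or could not be given. Th was at least 1.15-fold higher with Nurr1 and at least 1.45-fold higher with Foxa2, bounds that fall short of the 2-fold call used here (4.37% and 3.52% of genes were called higher with Nurr1 and Foxa2). Without the detection floor the same log2 differences of Th were 1.75 and 2.08, so whether Th was more than 2-fold higher with a single factor cannot be read from these arrays. For Slc6a3 no difference from Control was given with either factor, since the Nurr1 signal lay below the floor of the Control array on the normalized scale and the Foxa2 signal was not detected.

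The series asks whether the factors act together, and the 4 arrays allow 2 simple expectations for the combined array. If the intensities added by each factor simply summed, Th would have had a normalized intensity of 200 above the offset with values as measured, or 137 with Control at the detection floor, against 4206 observed, a ratio of 21.1 or 30.7. For Slc6a3 the sum was 68.5 as measured or 60.1 with the floor, against 1833 observed, a ratio of 26.7 or 30.5. If instead the fold changes multiplied, Th would have reached 8.86 on the log2 scale as measured, against 12.04 observed, an excess of 3.18 or 9.07-fold. The floor raises the Control value and with it this excess, to 4.73 or 26.5-fold, so the size of the Th excess depends on a Control level that the array could not measure. The corresponding excess of Slc6a3 was 4.57 as measured and 4.59 with the floor, about 23.8-fold and 24.0-fold. These lie close together by arithmetic. Neither the Control nor the Foxa2 value of Slc6a3 was detected, and the floor raised both by similar amounts. They enter the excess with opposite signs, so the rises nearly cancel. The size of the Slc6a3 excess thus also depends on levels that the arrays could not measure. Over all 8230 genes detected on at least 1 array the median excess was -0.01 with the floor, and 1% of genes exceeded 1.66.

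A measure that does not depend on how the effects combine is the distance of the combined array from the highest of the other 3. Th was 30.4-fold above its highest other array (Foxa2) and ranked 1 of 8230 named genes, a ranking that leaves out probes without a gene symbol. Slc6a3 was at least 19.3-fold above the Control floor, the highest of its other values, and ranked 4. Over all 8230 genes 5% exceeded a difference of 0.57 (log2) and 1% exceeded 1.40. At least 2-fold above each other array were 172 of 8230 genes, which is 2.09%, while 0.352% were at least 2-fold below each. Under the 7 alternative settings Th ranked 1 or 2 and Slc6a3 between 3 and 6 on this measure.

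**Figure D2:**
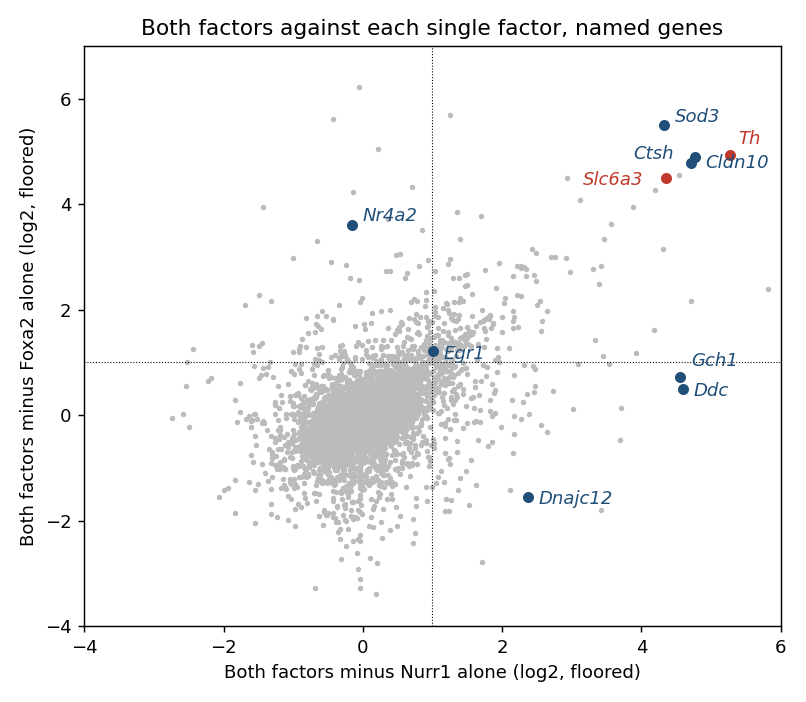
Each grey point is 1 of 8230 named genes, placed by its floored log2 difference between both factors and Nurr1 alone (horizontal) and between both factors and Foxa2 alone (vertical), and dotted lines mark 2-fold. Th (5.27, 4.93) and Slc6a3 (4.36, 4.51) lie in the upper right, whereas Ddc (4.59, 0.50) and Gch1 (4.55, 0.73) are raised only on the horizontal axis and Nr4a2 (-0.16, 3.61) only on the vertical.

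The promoters of both genes are shown because the pair was high on the same array and the expressed factors are DNA-binding proteins. The 250 bases before each start site come from RefSeq on mouse build GRCm38.p6, in which both genes were found. The Th window is chr7:142899996-142900245 on the minus strand and the Slc6a3 window chr13:73536497-73536746 on the plus strand. Capitals mark matches, on either strand, to the 7 motifs listed after the sequences.
Th: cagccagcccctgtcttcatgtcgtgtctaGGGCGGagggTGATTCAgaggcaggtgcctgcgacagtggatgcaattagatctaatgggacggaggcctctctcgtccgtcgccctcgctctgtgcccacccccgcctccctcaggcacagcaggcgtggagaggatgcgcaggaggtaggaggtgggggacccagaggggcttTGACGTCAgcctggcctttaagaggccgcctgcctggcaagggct
Slc6a3: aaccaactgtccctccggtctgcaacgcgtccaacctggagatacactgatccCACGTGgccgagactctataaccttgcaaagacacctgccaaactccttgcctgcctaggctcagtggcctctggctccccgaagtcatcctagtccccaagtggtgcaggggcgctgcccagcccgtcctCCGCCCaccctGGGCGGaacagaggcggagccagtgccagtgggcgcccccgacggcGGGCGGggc
The motifs were the Nurr1 monomer element NBRE (AAAGGTCA), the forkhead cores TGTTTAC and TATTTAC, the cyclic AMP response element (TGACGTCA), the AP-1 site (TGANTCA), the GC box (GGGCGG) and an E-box (CACGTG), each searched on both strands, and none of the marked matches overlap.

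The Th window held a cyclic AMP response element starting 45 bases before the start site, an AP-1 match at 210 bases and a GC box at 220. Among all 32851 windows of this length 1.55% held the cyclic AMP response element, 6.75% the AP-1 letters and 32.7% a GC box. The Slc6a3 window held 3 GC boxes, at 66, 55 and 9 bases, and an E-box at 197 bases, which 6.02% of windows hold. Neither window held the NBRE (1.34% of windows) or a forkhead core (3.17% for TGTTTAC and 2.73% for TATTTAC), which says only that these letters are absent from these 250 bases. The Th window was 64.4% G or C and the Slc6a3 window 66%, against a median of 52.4%. The only motif found in both was the GC box.

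Transcript of the expressed factors could be read only for Nurr1, by 1 named probe. Whether that probe reads viral transcript, endogenous transcript or both is not given in the sources used here. Nr4a2, the gene of Nurr1, had a deposited signal of 167 on the Control array, 1669 with Nurr1, 216 with Foxa2 and 1620 with both factors. The Nurr1 and combined arrays thus had similar Nr4a2 values, 1.12-fold apart, while Th differed 38.5-fold and Slc6a3 20.5-fold between the same arrays. Foxa2 has no named probe and its own transcript was not analysed here, so whether the Foxa2 level was alike on the 2 arrays that received it is not known.

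Other genes that make or handle dopamine did not share the pattern of Th and Slc6a3. Of 20 genes in this list, chosen with earlier results known, 11 had a named probe and 9 were detected on at least 1 array. Slc18a2, the vesicular monoamine transporter gene, Maoa and Maob, of dopamine breakdown, and Dbh, which makes noradrenaline, were among the 9 not analysed here. Apart from Th and Slc6a3, 3 of 7 detected genes were at least 2-fold higher with both factors than in Control, beside 7.06% of all genes. The median difference was 0.20, against -0.08 over all genes. Against Nurr1 alone 3 of 7 were higher, beside 4.41% of all genes (median 0.42, against -0.08 over all genes). Against Foxa2 alone none of 7 was higher and 1 was lower, beside 4.81% and 3.85% of all genes (median -0.13). Th and Slc6a3, chosen for this pattern, were the only 2 of the 9 detected list genes at least 2-fold above every other array. None of the other 7 was, which is near the share of 2.09% over all genes.

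The 3 genes raised beside them were already high with Foxa2 alone. Ddc had a deposited signal of 106 on the Control array, 368 with Nurr1, 5243 with Foxa2 and 7392 with both factors. Its step from Foxa2 to both factors was 1.41-fold, where that of Th was 30.4-fold. Gch1, which encodes GTP cyclohydrolase 1, the first enzyme of tetrahydrobiopterin synthesis, had signals of 145, 152, 1366 and 2178 in the same order, and its step from Foxa2 to both was 1.66-fold. A second, dimmer Gch1 probe gave 1.08-fold for this step (log2 0.11). Dnajc12, a co-chaperone of the aromatic amino acid hydroxylases, had signals of 400, 367, 4681 and 1674 and was 2.93-fold lower with both factors than with Foxa2 alone. All 3 were therefore high on both arrays that received Foxa2 and lower on the others, unlike Th and Slc6a3.

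The remaining cofactor genes moved little. Pts, of the second step of cofactor synthesis, ranged from a signal of 964 with Nurr1 to 1446 in Control, and Spr, encoding sepiapterin reductase of the last step, from 771 with Foxa2 to 1015 with Nurr1. Qdpr, which encodes the reductase that recycles the cofactor, ranged from 1129 with Nurr1 to 1851 with Foxa2. Aldh2, an aldehyde dehydrogenase that acts on the aldehyde made from dopamine, ranged from 2958 with Nurr1 to 3867 with Foxa2. No contrast of these 4 genes reached 2-fold. Gchfr, which encodes a feedback regulator of GTP cyclohydrolase 1, and Pcbd1, of cofactor recycling, were not detected on any array.

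**Figure D3:**
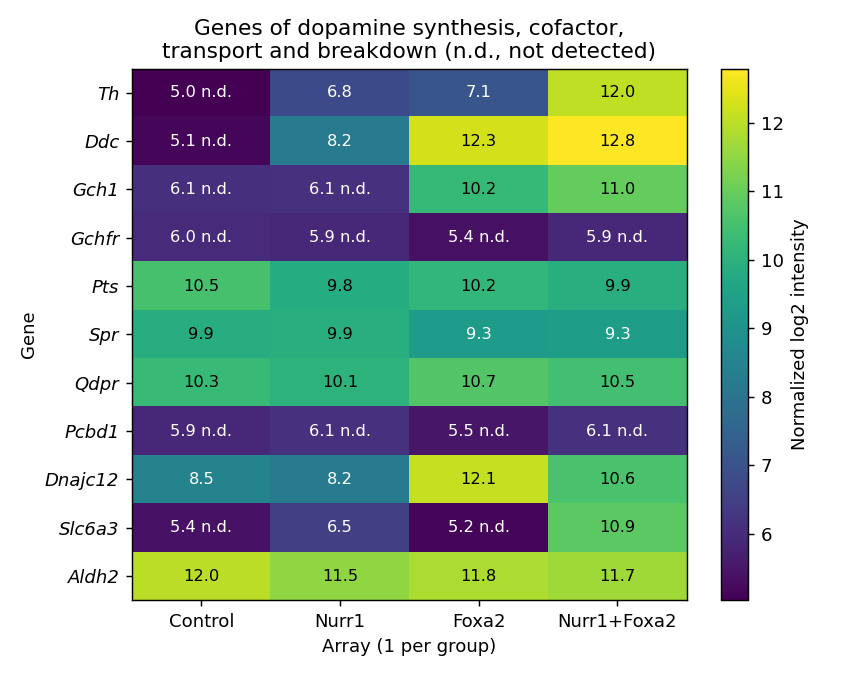
Normalized log2 intensity of the 11 genes of the dopamine list with a named probe (rows) on the 4 arrays (columns), with n.d. for values not detected. Th and Slc6a3 are high only with Nurr1+Foxa2 (12.0 and 10.9), while Ddc, Gch1 and Dnajc12 are high on both arrays with Foxa2. Colours are to be read along a row, since different probes are not comparable in size.

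Slc6a3 was read beside the other transporter genes of its family. Of 20 genes of the Slc6 family 8 had a named probe and 7 were detected. Slc6a3 was the only 1 of them at least 2-fold higher with both factors than in Control, beside 7.06% of all genes. Slc6a11, a GABA transporter gene of astrocytes, went in signal from 1693 in Control to 373 with both factors, a 6.59-fold difference, and was already at 380 with Nurr1 alone. Slc6a9, encoding the glycine transporter GlyT1, went from 2828 to 807 and was at 873 with Nurr1 alone. Slc6a15, a neutral amino acid transporter gene, had signals of 310 in Control, 536 with Nurr1, 1177 with Foxa2 and 541 with both. Slc6a6, of taurine uptake, and Slc6a8, of creatine uptake, stayed within 2-fold on all arrays.

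Regulators linked to Th or Slc6a3 were mostly close to Control. Of 39 genes in this list 23 had a named probe and 19 were detected in the contrast of both factors with Control. Of these, 3 were at least 2-fold higher and 2 lower, beside 7.06% and 4.75% of all genes. The median was -0.05, against -0.08 over all genes. Higher were Nr4a2, Egr1 and Fos. Egr1, an immediate-early zinc finger factor, had signals of 1328, 2605, 2448 and 5521 on the Control, Nurr1, Foxa2 and combined arrays and was the only list gene besides Th and Slc6a3 to be at least 2-fold above each other array, by 2.01-fold. Over all genes 2.09% showed this pattern. Fos, part of the AP-1 factor, had signals of 177, 401, 245 and 417 in that order and had nearly the same value with Nurr1 alone as with both. Neurog2, a proneural factor, had signals of 2674 in Control, 626 with Nurr1, 1530 with Foxa2 and 478 with both. En2, a midbrain homeobox gene, had 293 in Control, 224 with Nurr1, 207 with Foxa2 and an undetected 160 with both. Both genes were thus already lower with a single factor. Cdkn1c, a cell cycle inhibitor gene whose product can bind Nurr1, had signals of 12058, 2786, 26362 and 8315, so that it was 2.88-fold higher with both factors than with Nurr1 and 3.27-fold lower than with Foxa2. Hes1, a Notch target and repressor gene, was raised on the Foxa2 array (982, against 343 in Control) and not on the combined array (465). Lmx1b had signals from 152 to 179 at the edge of detection, and En1 and Msx1 were not detected. Lmx1a, Pitx3, Otx2 and Foxa1 have no named probe.

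Genes whose products bind or modify tyrosine hydroxylase or the dopamine transporter were counted next. Of 20 such genes 15 had a named probe, 14 were detected in the contrast of both factors with Control, none was at least 2-fold higher and 1 was lower (median 0.14), beside 7.06% and 4.75% of all genes. The lower gene was Slc9a3r1, a PDZ scaffold gene, with a signal of 2316 in Control, 984 with Nurr1, 1601 with Foxa2 and 871 with both. With Nurr1 alone 2 genes of 14 were at least 2-fold higher than Control, Camk2b by a log2 difference of 1.32 and Stx1a by 1.10. With Foxa2 alone 2 of 15 were, Camk2a by 1.62 and Camk2b by 1.15. Over all genes 4.37% were called higher with Nurr1 and 3.52% with Foxa2. Camk2a, whose kinase phosphorylates tyrosine hydroxylase, had signals of 199, 149, 536 and 203 in the order Control, Nurr1, Foxa2 and both. Pick1, a PDZ protein gene, and Syngr3, a synaptic vesicle protein gene, whose products bind the transporter, had log2 differences of 0.55 and 0.63 from Control with both factors.

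A further list held genes known from midbrain dopamine neurons. Of 20 such genes 8 had a named probe and 7 were detected with both factors or Control. Of these, 3 (Bdnf, Nrip3 and Ret) were at least 2-fold higher with both, beside 7.06% of all genes. The median was 0.93, against -0.08 over all genes. Ret, the receptor gene for glial cell line-derived neurotrophic factor, had signals of 101, 969, 116 and 482 in the order Control, Nurr1, Foxa2 and both, and was 2.49-fold lower with both than with Nurr1 alone. Gfra1, its co-receptor gene, had signals of 162, 354, 165 and 289. Nrip3 had signals of 208, 541, 195 and 588. These 3 had their higher signals on the arrays that received Nurr1, although Gfra1 with both factors (at least 1.89-fold above Control) did not reach 2-fold. Bdnf, a neurotrophin gene, had signals of 168, 198, 414 and 706, and Ptpru, a receptor phosphatase gene, 127, 123, 277 and 290, and both had their higher signals on the arrays that received Foxa2, although the bounds of Ptpru against Control (1.84-fold and 1.90-fold) did not reach 2-fold. Slc17a6, a vesicular glutamate transporter gene, had signals of 296, 421, 277 and 403 and reached 2-fold in no contrast. Sncg was not detected on any array, and Drd2, the dopamine autoreceptor gene, was detected only with both factors, at 182 against a lowest detected signal of 179. None of the 7 detected genes of this list was at least 2-fold above every other array, which is near the share of 2.09% over all genes.

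Apart from each other, Th and Slc6a3 had their nearest profiles in genes outside the dopamine list. Likeness was the Euclidean distance over the 4 arrays between floored log2 profiles after each gene's mean was subtracted, and with 4 arrays and 1 high value it mostly ranks how far the combined array stands out. Nearest to Th were Ctsh (distance 0.72), Slc6a3 (0.91), Mia (0.97), Fgf10 (1.06), Sod3 (1.08), Cldn10 (1.18), Pygl (1.31) and Pkp2 (1.55), where the median over all detected genes was 4.63. Nearest to Slc6a3 were Fgf10 (0.20), Mia (0.22), Ctsh (0.27), Cldn10 (0.57), Clec2d (0.81), Efhd1 (0.83), Th (0.91) and Cav2 (0.94), against a median of 3.88. Each gene of the pair was thus among the 8 nearest of the other. Both were chosen for being high only on the combined array of these data, so their closeness is not separate evidence.

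These neighbours in profile had the following values. Ctsh, encoding the lysosomal protease cathepsin H, had deposited signals of 127, 113, 149 and 2420 in the order Control, Nurr1, Foxa2 and both, the first 3 not detected. Fgf10, a fibroblast growth factor gene, had signals of 104, 149, 143 and 1721, the first 3 again not detected. Sod3, the extracellular superoxide dismutase gene, had signals of 110, 262, 116 and 3919 and was detected with Nurr1 alone. All 3 resembled Slc6a3 in lying at or near background on 3 arrays. Mia, a secreted protein gene, differed in being detected throughout, with signals of 236, 216, 233 and 3414. Cldn10, a tight junction claudin gene, was also measurable throughout, with signals of 747, 506, 517 and 12452, and its 3 probes gave log2 differences between 3.75 and 4.08 from Control. Pkp2, a desmosome gene, had 2 probes with log2 differences of 4.23 and 4.21 from Control, whereas those of Pygl, a glycogen phosphorylase gene, were 4.14 and 2.44. Agreement between probes of this kind cannot be had for Th or Slc6a3, which have 1 named probe each.

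**Figure D4:**
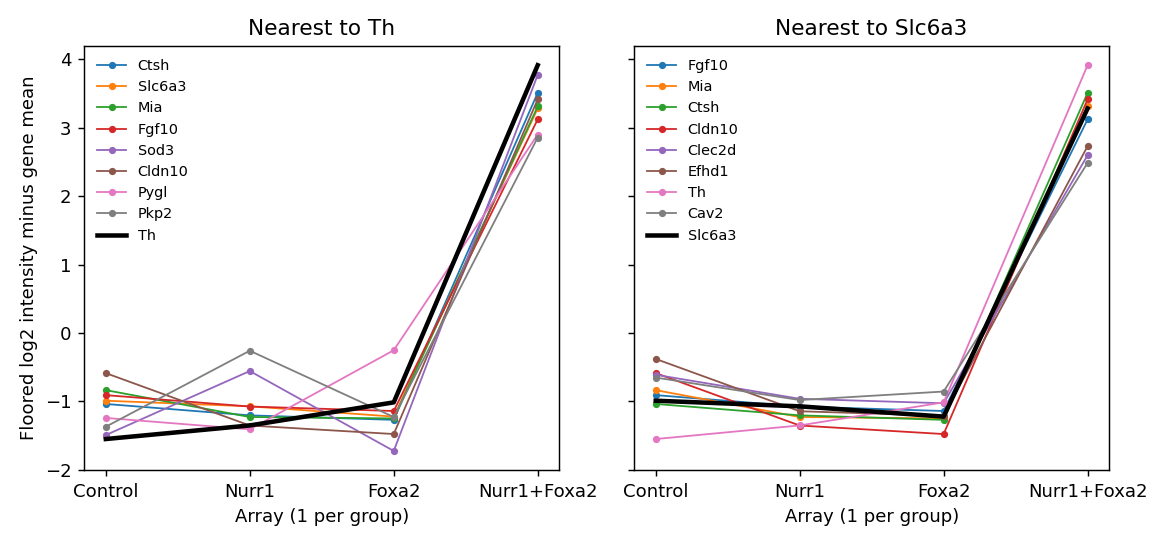
Floored log2 intensity of each gene minus its mean over the 4 arrays, for Th (left, black) and Slc6a3 (right, black) with the 8 genes nearest to each. Every line has its highest point at Nurr1+Foxa2, and in both panels that of Th is the highest.

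The chromosomal neighbours of the pair were read as a measure that the choice of genes did not use, and they were picked by gene order alone. Of the 5 protein-coding genes on each side of Th on chromosome 7, 4 had a named probe and all 4 were detected. Mrpl23, Cd81 and Tssc4 differed by 0.09, 0.08 and -0.29 (log2) between both factors and Control. Igf2, an imprinted growth factor gene, had signals of 205, 753, 319 and 567 in the order Control, Nurr1, Foxa2 and both, and so was higher with Nurr1 alone than with both. Its log2 differences with both factors were 1.64 from Control, -0.63 from Nurr1 and 1.05 from Foxa2. It thus passed the 2-fold call against Control and Foxa2. Of the 10 neighbours of Slc6a3 on chromosome 13, 7 had a named probe and 6 were detected. The adjacent gene Clptm1l had signals of 6277, 6680, 7409 and 12627, so that both factors lay 1.83-fold above Control and 1.70-fold above Foxa2, which is below the 2-fold call. On the other side Lpcat1 had signals of 240, 209, 234 and 215. Ndufs6 and Mrpl36 differed by 0.23 and -0.77 (log2) between both factors and Control, and Slc6a19 was not detected on any array. Slc12a7, a potassium-chloride cotransporter gene, was detected only on the combined array, with signals of 111, 143, 162 and 246 and a bound of 0.58 (log2) against Control. Irx2, a homeobox gene, had signals of 484, 427, 345 and 246 and was lower with both factors by a log2 difference of -1.68 from Control. None of the neighbours was at least 2-fold above each other array, a pattern that 2.09% of all genes showed.

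Markers of other cells were read on the same arrays. Of 7 markers of cortical precursors 3 had a named probe and were detected on all 4 arrays, and their summed signal was 6920 in Control, 5275 with Nurr1, 8533 with Foxa2 and 4026 with both. Emx1, Emx2 and Pax6, which mark cortical origin, have no named probe, so cortical origin could not be checked by them. Of the 3 measured, Sox2, Nes and Lhx2, only Sox2 was at least 2-fold lower with both factors than in Control (2.11-fold), beside 4.75% of all genes. All 10 measured pan-neuronal markers were detected on every array, with summed signals of 15808, 20171, 20480 and 18067 in the same order, and with both factors against Control 3 of 10 were at least 2-fold higher (Nefm, Stmn2 and Syp), 1 was lower (Rbfox3, 3.35-fold, from 1914 to 704) and 6 were neither, beside 7.06% and 4.75% of all genes. The 4 measured GABAergic markers were detected on all arrays with sums from 2247 to 2782, and none differed 2-fold from Control. The 4 astrocyte markers summed to 77025, 33950, 60548 and 26123, and the 5 oligodendrocyte markers to 68114, 57391, 46767 and 31908. Most of each sum was 1 probe, in Control Slc1a3 with 60636 and Olig1 with 53318. Taken singly, 4 of 4 astrocyte and 4 of 5 oligodendrocyte markers were at least 2-fold lower with both factors than in Control, beside 4.75% of all genes. Olig1 was not (log2 -0.88). The astrocyte markers were already lower with Nurr1 alone, where Th and Slc6a3 were near background. Their median log2 difference was -1.15 for Nurr1 against Control and -0.29 for both factors against Nurr1. For the oligodendrocyte markers these medians were -0.54 and -1.09, and over all genes -0.03 and -0.08. The astrocyte and oligodendrocyte sums were lowest on the array where Th and Slc6a3 were high, and the part of cell composition in that result was not tested. Noradrenergic and serotonergic markers have no named probe, and the single measured microglial (Aif1) and endothelial (Kdr) markers were not detected on any array.

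The whole series gave similar arrays in technical terms. The median deposited signal ranged from 134 to 149 and the share of probes detected from 42.7% to 44.6%. The number of arrays limits the precision of every value here.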

How the data were processed

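RNA was hybridised to single-colour Illumina bead arrays, 1 for each of 4 groups, which were taken from the sample titles. The deposited scanner table holds, per the file headers, a bead intensity and a detection p-value for 25697 probes. No intensity was negative and the lowest on any array was 59.7, which leaves background in the values. The authors also deposited log2 values for 13246 probes. The columns of that table have the same distribution (median 9.04) and rank probes as the intensities do, so these are quantile-normalized values without centring, as read from the values. The software is not given in the sources used here. Gene symbols came from the platform annotation, which names 12484 of those probes and none of several genes, while 762 have none, and the 12451 probes outside that table are unnamed here.

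Intensities were processed with neqc (limma 3.58.1, R 4.3.3), which corrects background from the detection p-values, adds an offset of 16, applies quantile normalization and takes log2. The brightest probe stood for a gene. Detection meant a detection p-value under 0.01, undetected values were raised to the lowest detected value of the array, and calls needed 2-fold. No test between groups was made. Further steps used pandas 2.3.3 and numpy 2.4.6 under Python 3.11.15, with matplotlib 3.10.9 for plots. Genes named are Th and Slc6a3, Nr4a2, the measured dopamine list, up to 5 members of each other list that differed 2-fold in each direction between both factors and another array, and the 8 genes nearest in profile to each of the pair. Further genes (unchanged list members, undetected markers and chromosomal neighbours) were added after their values were seen. The members and lists were chosen with earlier results of these data known. Alternatives tried were no background correction, scaling to equal medians, the authors' values, an offset of 50, detection under 0.05, no floor or filter, and the dimmest probe of a gene.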

Additional observations from a re-analysis of the deposited data

Results flagged for a closer look

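Probes without a gene symbol, which no comparison above used, also carried the pattern of Th and Slc6a3. Of 13213 such probes 990 were detected on at least 1 array. Of these, 59 (5.96%) were detected with both factors and at least 2-fold above each other array. The share among named genes was 2.09%, counted over genes and not over probes. The share and ranks given above for named genes therefore do not cover the whole array. The brightest differences were those of probe ILMN_2965903, with deposited signals of 130, 112, 125 and 11659 in the order Control, Nurr1, Foxa2 and both, and of probe ILMN_1247347, with signals of 78.5, 80.7, 79.2 and 8700. Neither was detected on the first 3 arrays, and they were at least 117-fold and at least 87.1-fold above them, which is further than Th.

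For 3 genes of the lists the difference with a factor alone and the difference when the same factor was added to the other had opposite signs, each larger than the spread between probes (0.18 to 0.20), with 1 array each and no test. In none of them did both differences reach 2-fold, and those of Stx1a and the negative ones of Camk2b were small. Camk2b, whose kinase phosphorylates tyrosine hydroxylase, had a log2 difference of 1.32 with Nurr1 alone and -0.209 with Nurr1 added to Foxa2, and of 1.15 with Foxa2 alone and -0.384 with Foxa2 added to Nurr1. Slc6a15 had a difference of 0.828 with Nurr1 alone and -1.28 with Nurr1 added to Foxa2. Stx1a, which encodes the membrane fusion protein syntaxin 1A that binds the dopamine transporter, had a difference of 0.31 with Foxa2 alone and -0.417 with Foxa2 added to Nurr1.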

How the results depend on the processing

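No paired analysis was possible because each group has 1 array. In 98 comparisons of 14 results with 7 alternatives, 54 moved by less than the spread between probes (counts by less than 1.5 times), 44 moved further and none changed direction. Part of the 54 could not move. Th and Slc6a3 have 1 named probe each, so the dimmest probe gave the main values. Differences between detected values also cannot change with the floor or with a looser detection threshold. Values are log2, with the differences of both factors from Control, Nurr1 and Foxa2 in that order, then the excess over multiplied effects, then the difference from the highest other array. Without background correction Th gave 4.57, 4.46 and 4.26, then 4.15 and 4.26, and Slc6a3 gave 3.41, 3.46 and 3.53, then 3.58 and 3.41. With the authors' values Th gave 4.57, 4.47 and 4.27, then 4.16 and 4.27, and Slc6a3 gave 3.41, 3.45 and 3.52, then 3.56 and 3.41. With an offset of 50 Th gave 5.04, 4.89 and 4.62, then 4.47 and 4.62, and Slc6a3 gave 3.86, 3.92 and 4.03, then 4.09 and 3.86. With detection under 0.05 the bounds against Control rose to 6.2 for Th and 5.01 for Slc6a3 and that of Slc6a3 against Foxa2 to 5.13, and the Th excess was 3.99. Without floor or filter these were 7.01, 5.46, 5.67 and 3.18, as the construction of the floor requires. Background left in the signal, or a larger offset, adds to every value and so lowers folds against dim signals by construction. Any other part of these shifts was not tested. The count of genes 2-fold above each other array ranged from 130 to 193, and that of dopamine list genes above Control from 4 to 5. The difference of Th from Control passed 2-fold for Foxa2 with detection under 0.05 (1.27), and for Foxa2 (2.08) and Nurr1 (1.75) without a floor. Signal over background limits the Th and Slc6a3 values on the Control array and the Slc6a3 values with a single factor.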
